A study of Mus musculus with 10 samples.

Results

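The glycoprotein hormone subunits followed here are 4 genes, Cga, Lhb, Fshb and Tshb, taken by name out of 44288 gene symbols. Each was listed in all 10 single-cell count tables of the mouse pituitary. The tables give unique molecular identifiers (UMIs), each of which stands for 1 captured mRNA molecule, for every gene and cell barcode. All mice were of the CD1 strain, an outbred stock, and their pituitaries were dissociated without enzymes. On the 10X Genomics platform, droplets with barcoded gel beads, 1 library was made from wild-type 8-week-old females and 1 from wild-type 8-week-old males. On the Drop-seq platform, droplets with barcoded microparticles, 2 libraries came from wild-type 8-week-old females and 2 from wild-type 8-week-old males, each pooling a pair of mice. A further 8-week-old female Drop-seq library pooled mice carrying the mt/hGRF transgene, the human growth hormone releasing factor (GHRH) gene driven by a metallothionein promoter, which is active in many tissues. The last 3 Drop-seq libraries were from 13-week-old wild-type females, with 1 virgin mouse, 1 lactating mouse (lactating 1) and a pooled pair of lactating mice (lactating 2). The virgin and mt/hGRF groups were thus a single library each, and no library separates individual mice of a pool.

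Cga encodes the alpha subunit that luteinizing hormone (LH), follicle-stimulating hormone (FSH) and thyroid-stimulating hormone (TSH) share, and Lhb, Fshb and Tshb encode the beta subunits that make each hormone distinct. A hormone is secreted as a dimer of alpha and beta chains, so a cell that makes it needs both mRNAs. Gonadotropes make LH and FSH under the control of gonadotropin-releasing hormone, sex steroids, activins and inhibins, and thyrotropes make TSH under the control of thyrotropin-releasing hormone and thyroid hormone.

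The 10 libraries kept 978 to 5256 cells each and 23432 in all, with a median of 534 to 784.5 UMIs per cell in the Drop-seq libraries and of 1246 and 1028 in the 10X female and 10X male libraries. At most 6 cell barcodes were shared between any pair of libraries. The mt/hGRF library stood apart in RNA quality, since 38.7% of its barcodes that passed the other limits failed the mitochondrial limit, against 6.95% to 20.4% in the other libraries. Intervals and limits given for counts cover counting error only.

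In the GENCODE vM21 annotation of GRCm38 (mm10), Cga lies on the plus strand of chromosome 4 from 34893779 to 34907370 and Lhb on the plus strand of chromosome 7 from 45420820 to 45421897. Fshb lies on the minus strand of chromosome 2 from 107056140 to 107059656 and Tshb on the minus strand of chromosome 3 from 102775465 to 102782718. All are protein-coding. Opposite-strand genes span some exonic bases of Cga (305 by Platr9) and Lhb (138 by Ruvbl2) and all 4555 exonic bases of Tshb, which lies inside Tspan2, while no gene overlaps Fshb. The Drop-seq counts used strand, and for the 10X counts the sources used here do not say, so reads of those overlapped bases may be uncertain there.

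The sequence just upstream of each start is shown because the members were followed together and yet differed between cell classes and conditions. The stretches below come from the RefSeq promoter table of GRCm38.p6, read 5′ to 3′ on the strand of the gene, with capitals marking matches to the searched motifs, and in the Lhb windows the NR5A1 matches alone. Positions count back from the first transcribed base in RefSeq, which is 1, so that -1 is the base before it.
Cga, chr4:34893529-34893778, plus strand: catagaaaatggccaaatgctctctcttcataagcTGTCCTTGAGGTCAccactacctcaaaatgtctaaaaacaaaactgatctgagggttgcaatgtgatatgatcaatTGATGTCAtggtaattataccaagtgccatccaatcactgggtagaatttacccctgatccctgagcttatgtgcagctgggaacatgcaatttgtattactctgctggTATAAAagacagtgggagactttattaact
Fshb, chr2:107059657-107059901, minus strand: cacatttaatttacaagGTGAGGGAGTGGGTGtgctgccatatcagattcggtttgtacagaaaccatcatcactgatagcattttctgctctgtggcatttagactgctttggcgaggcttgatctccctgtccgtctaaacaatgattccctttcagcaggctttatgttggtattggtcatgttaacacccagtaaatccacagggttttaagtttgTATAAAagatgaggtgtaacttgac
Tshb, chr3:102782719-102782964, minus strand: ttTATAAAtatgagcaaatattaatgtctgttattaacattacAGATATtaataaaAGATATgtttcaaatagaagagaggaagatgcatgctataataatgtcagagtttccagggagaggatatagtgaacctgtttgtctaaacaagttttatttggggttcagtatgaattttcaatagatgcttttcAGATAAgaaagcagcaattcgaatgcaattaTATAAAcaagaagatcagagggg
Lhb, chr7:45420806-45420835, plus strand: cctggcttcccTGACCTTGtctgtgtctcg
Lhb, chr7:45420876-45420905, plus strand: ccactacttagTGGCCTTGccacccccaca
The motif letters searched on both strands were CAAGGNCA for NR5A1 (the gonadotrope orphan nuclear receptor SF-1), TAATCN for PITX1, GNGNGGGNG for EGR1, AGATAN for GATA2, ATGNATA for POU1F1 and TGANGTCA for the cyclic AMP response element (CRE), and TATAAA for the TATA box was searched on the given strand. Cga held an NR5A1 match from -215 to -208 that overlaps a CRE match from -209 to -202, a further CRE match from -139 to -132 and a TATA box from -30 to -25. For Lhb, 2 windows of 30 bases are shown, holding its NR5A1 matches from -129 to -122 and from -59 to -52, and in the second window an EGR1 match from -50 to -42 that is not in capitals. Lhb also held a PITX1 match from -101 to -96 and a TATA box from -31 to -26, both outside these windows. The GENCODE starts of Lhb, Fshb and Tshb lie upstream of their RefSeq starts, and all positions given here count from the RefSeq start. The Fshb stretch (245 bases) and the Tshb stretch (246 bases) begin at -250 and stop at the GENCODE start, short of the RefSeq start, and the Lhb matches lie upstream of the RefSeq start only. Fshb held 2 overlapping EGR1 matches from -233 to -219 and a TATA box, and Tshb held 3 GATA2 matches and 2 TATA boxes. Among 32851 promoters, the 250 bases upstream held the NR5A1 letters in 5.53%, PITX1 in 19.8%, EGR1 in 35.8%, GATA2 in 26.5%, POU1F1 in 7.92%, CRE in 7.49% and the TATA box in 7.59%. These are matches of letters and were not tested as sites.

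Cell classes were gated with markers other than the 4 members, so that member levels could be compared between classes. A cell entered the class with the most marker UMIs when that class held over 50% of all its marker UMIs. The Gona gate used 7 markers, among them Gnrhr, the receptor for gonadotropin-releasing hormone, and Nr5a1. It held 714 cells, from 20 in Drop-seq female 1 to 128 in Drop-seq male 2, and 265 of them rested on a single marker UMI. The 10 leading genes of the gate included Cga, Fshb and Lhb, which the gate did not use, and 4 of its own markers, with no marker of another class. Several Gona markers came from the study's markers on these samples, where the class was named by Fshb, Lhb and Gnrhr. High subunit levels in the gate therefore partly follow from the choice of markers. The Thyr gate, with the thyrotrope markers Trhr, Dio2, Rxrg and Sox14, held 232 cells, 160 of them on a single marker UMI, and reached 20 cells in 5 libraries. Sox14, a thyrotrope transcription factor, had 0 UMIs in these cells and Trhr, the receptor for thyrotropin-releasing hormone, had 17, so the Thyr gate rests on Dio2 (174 UMIs) and Rxrg (149 UMIs). No class held a majority of markers in 9629 cells, which are called ungated. The macrophage gate (MacPh), whose cells are not known to express these hormones, is used below as a background. The Stroma gate, which had collagen genes among its markers and is also not a hormone class, is given beside it.

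Among the gates compared, the alpha subunit and both gonadotropin beta subunits were on average highest in the Gona gate, and Tshb was highest in the Thyr gate. Levels are UMIs of the gene per 10000 UMIs, summed over the cells of a gate in a library, and since a UMI counts a molecule from its 3′ end they were not divided by gene length. Averaged over libraries, Cga was at 94.5 ± 49.9 (SD, n = 10) in the Gona gate, 15.2 in Mult (the multi-hormone class), 8.29 in Lac (lactotropes) and 3.0 in MacPh. Lhb was at 11.5 ± 12.3 (SD, n = 10) in the Gona gate and at 0.147 in MacPh, and Fshb was at 9.10 ± 11.1 (SD, n = 10) and 0.0813. In Stroma, Cga was at 5.95 and Lhb at 0.781, above MacPh, and Fshb was at 0.0635, below it. By these means, of which Thyr rests on 5 libraries and Mki67+ on 8, the order for Cga after the Gona gate was Mult, Lac, Sox2+ (stem cells), Thyr, Mel (melanotropes), Stroma, Som (somatotropes), Mki67+ (dividing cells) and MacPh. Mult was above Lac in 9 of 10 libraries, but Lac was above Sox2+ in 4 of 10, and Sox2+ above Thyr in 1 of the 5 libraries that had both, so the order of these 3 does not hold within libraries.

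The Gona gate exceeded every other gate for Cga, Lhb and Fshb in every library compared. By exact permutation of signs over libraries (two-sided, pseudocount of 0.5 UMIs per 10000, 36 tests adjusted together), 24 tests passed, which were these 3 genes against 8 gates each. Since several Gona markers were chosen on these samples, as given above, these tests are not independent support for the gate. The exact permutation p against the 7 gates with 10 libraries was 0.00195, the smallest possible, and 0.00335 after adjustment, and the adjusted exact permutation p against Mki67+, with 8 libraries, was 0.0117. The mean log2 ratio of Gona over the other gate ran from 2.89 (Mult) to 5.04 (MacPh) for Cga, from 2.17 (Mult) to 3.63 (MacPh) for Lhb and from 2.76 (Lac) to 3.25 (Stroma) for Fshb. Against the Thyr gate the Gona gate was higher for each of the 3 genes in 5 of 5 libraries, but 5 libraries cannot give a p below 0.0625 (exact permutation, adjusted p = 0.0776).

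**Figure D1:**
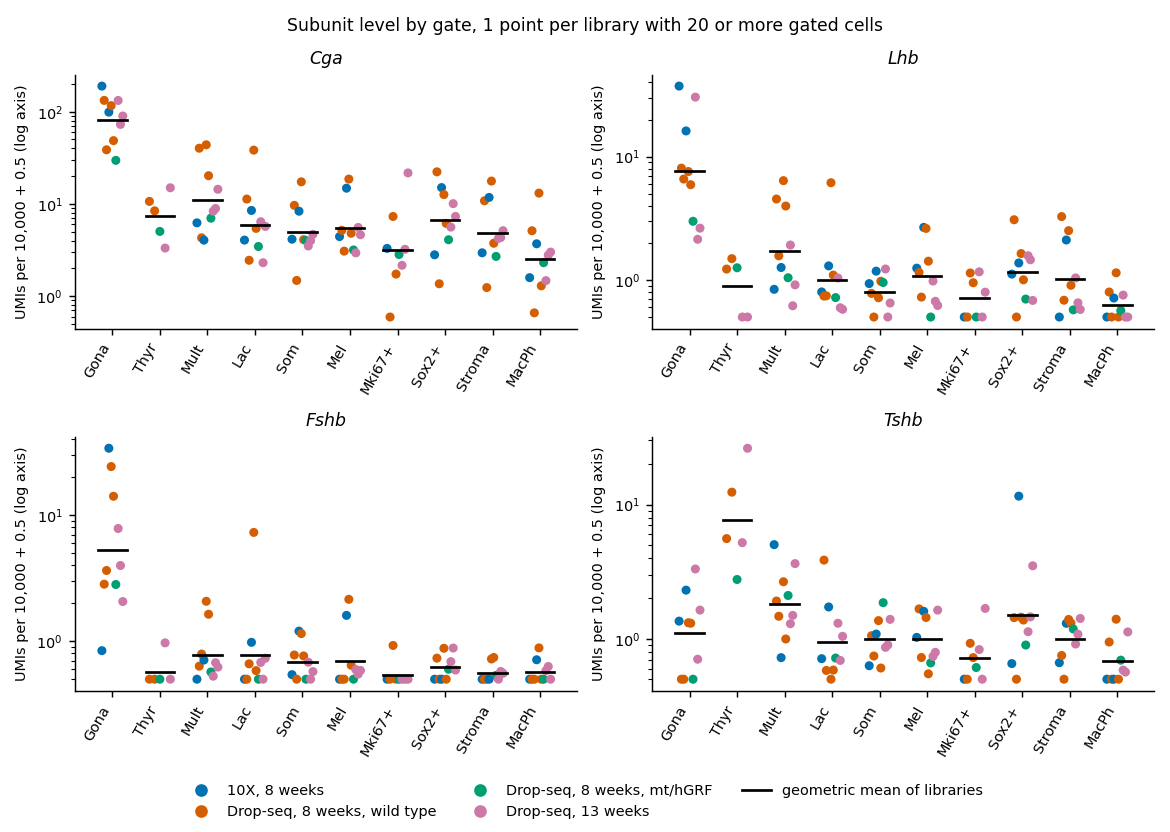
Level of each subunit by cell gate (horizontal axis), in UMIs per 10000 UMIs plus 0.5 on a log axis, with 1 point per library that had at least 20 cells in the gate and a line at the geometric mean. The Gona points of Cga, Lhb and Fshb sit above those of the other gates within each library, and the Thyr points of Tshb sit above its Gona points in 5 of 5 libraries.

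Tshb followed another order. In the Thyr gate, Tshb was at 5.08 UMIs per 10000 in Drop-seq female 2, 11.9 in Drop-seq male 2, 2.27 in mt/hGRF, 4.70 in virgin and 25.7 in lactating 2, the 5 libraries with 20 or more cells there. The Gona gates of the same libraries had it at 0, 0.806, 0, 2.81 and 1.14, lower in each. The mean log2 ratio of Gona over Thyr was -2.77 ± 1.31 (SD, n = 5), with the exact permutation p at its smallest value of 0.0625 and an adjusted p of 0.0776. In the 3 Gona gates at 0 the level allowed by 3 counts was up to 1.75 in Drop-seq female 1, 0.553 in Drop-seq female 2 and 0.534 in mt/hGRF. None of the 9 Tshb tests passed the threshold. In the Thyr gate Lhb was at most 3.36 and Fshb at most 1.12 UMIs per 10000 in any library, and 5 and 8 of 10 libraries had none of their UMIs there. Most Thyr-gated cells had no Tshb UMI. Tshb was found in 6 of 33 Thyr-gated cells in Drop-seq female 2 and 6 of 27 in Drop-seq male 2. It was found in 5 of 41 in mt/hGRF, 3 of 40 in virgin and 12 of 40 in lactating 2. Cga was found in 12.5% of Thyr-gated cells in virgin, against 19.45% of all kept cells there. In the Thyr gates of the other libraries just named, the Cga share was above that of all kept cells. Whether these cells were thyrotropes was not tested.

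Much of the subunit mRNA lay outside the gates that had the highest levels. The Gona gate held 9.37% to 42.0% of a library's Cga UMIs, 5.58% to 47.5% of its Lhb UMIs, 17.7% to 62.5% of its Fshb UMIs and 0% to 7.62% of its Tshb UMIs. Ungated cells held 35.2% to 54.5% of the Cga UMIs and 26.1% to 68.3% of the Tshb UMIs, and made up 35.0% to 44.8% of the kept cells. Subunit UMIs were also found in MacPh-gated cells, and their source was not tested. The share of MacPh-gated cells with a Cga UMI was 1.96% in Drop-seq female 2, 60% in Drop-seq male 1 and 7.14% to 30.9% in the other 8 libraries, against 47.8% to 87.5% of Gona-gated cells. For Lhb the MacPh share was at most 4.71%, for Fshb 3.64% and for Tshb 6.62%. In Stroma-gated cells the Lhb share was 14.3% in Drop-seq female 1, 16.7% in Drop-seq male 1 and 0% to 8.89% in the other libraries. The median UMI count per cell was 628 to 1683 in the MacPh gates and 532.5 to 1089 in the Gona gates. The MacPh cells were the shallower ones in Drop-seq female 1, Drop-seq male 1 and Drop-seq male 2.

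Barcodes with too few UMIs to count as cells carried the same 4 mRNAs. Cga in these barcodes was at 63.8 UMIs per 10000 in Drop-seq male 1, 49.6 in 10X male, 43.5 in Drop-seq female 1 and 33.6 in 10X female, above the level over all kept cells of each of those libraries (31.1, 11.8, 25.2 and 10.8). It was also above the kept cells in Drop-seq female 2, Drop-seq male 2 and lactating 1, and below them in mt/hGRF (4.72 against 5.39) and in virgin (4.86 against 10.1). Fshb was at 1.96, 3.42 and 1.10 in the low-UMI barcodes of 10X male, Drop-seq male 1 and Drop-seq male 2, and at 0 to 0.318 in the 6 female libraries with a profile. These Fshb levels were higher in each male library than in each female library, and lactating 2, with 8 such barcodes, gave no profile. The part of free mRNA in the levels of the kept cells was not tested.

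**Figure D2:**
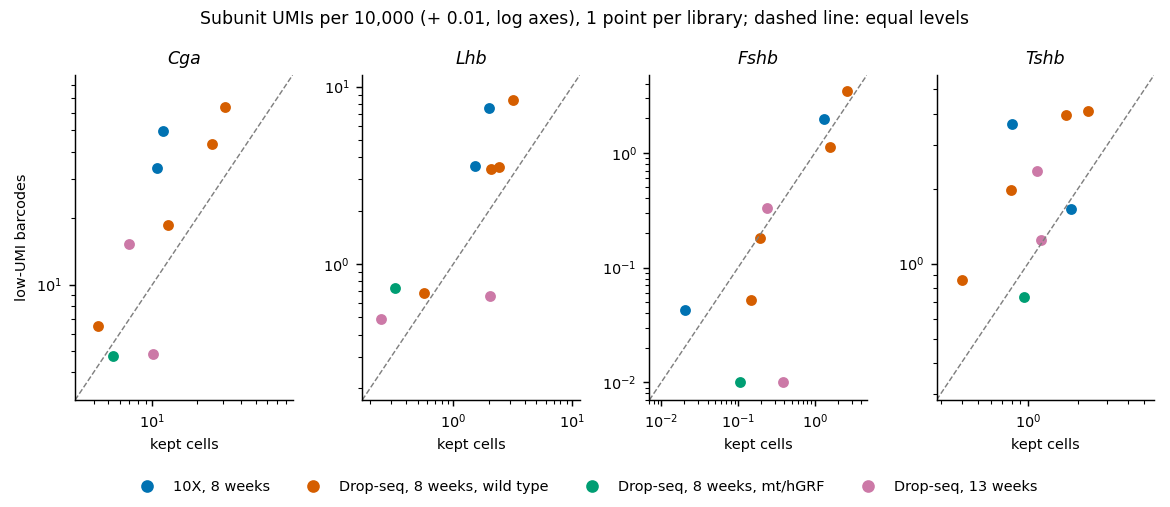
Level of each subunit in low-UMI barcodes (vertical axis) against all kept cells (horizontal axis) of the same library, both in UMIs per 10000 UMIs plus 0.01 on log axes, with a dashed line at equal levels. Cga of Drop-seq male 1 is the highest point, at 63.8 against 31.1, and the low-UMI Fshb levels of the 3 male libraries lie above those of the female libraries.

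The alpha subunit was detected together with each beta subunit far more often than in the remaining cells. To take depth out of the comparison, each cell with enough UMIs was thinned to 300 UMIs at random. Of cells with an Lhb UMI, 58.6% ± 16.8 (SD, n = 10 libraries) also had a Cga UMI, against 18.0% ± 10.8 of cells without Lhb, a difference of 40.7 points that was positive in 10 of 10 libraries (exact permutation, adjusted p = 0.00586). Of cells with an Fshb UMI, 72.5% ± 17.6 had Cga, against 19.0% ± 11.9 of the rest, a difference of 53.5 points in 9 of 9 libraries (exact permutation, adjusted p = 0.00781, the 10X female library having too few Fshb cells). Of cells with a Tshb UMI, 47.9% ± 12.9 had Cga, against 18.7% ± 11.6, a difference of 29.2 points in 10 of 10 libraries (exact permutation, adjusted p = 0.00586). The 3 differences therefore had the same direction in every library.

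Of the 3 pairs of beta subunits, Lhb with Fshb passed the test. Of cells with Lhb, 6.85% ± 6.93 (SD, n = 10) had an Fshb UMI, against 1.23% ± 1.58 of the rest, higher in 7 of 10 libraries (exact permutation, adjusted p = 0.0234). Lhb was found in 6.16% ± 6.04 of Tshb cells and 3.13% ± 2.55 of other cells (difference 3.03 points, range -6.46 to 9.39, exact permutation, adjusted p = 0.0996). Fshb was found in 3.08% ± 3.36 of Tshb cells and 1.44% ± 1.81 of others (difference 1.64 points, range -0.636 to 6.73, exact permutation, adjusted p = 0.0703). Without thinning the differences for Tshb with Lhb and Tshb with Fshb were 19.7 and 8.62 points and passed the threshold (exact permutation, adjusted p = 0.00234 for each), so that these 2 calls depend on the depth given to the cells.

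**Figure D3:**
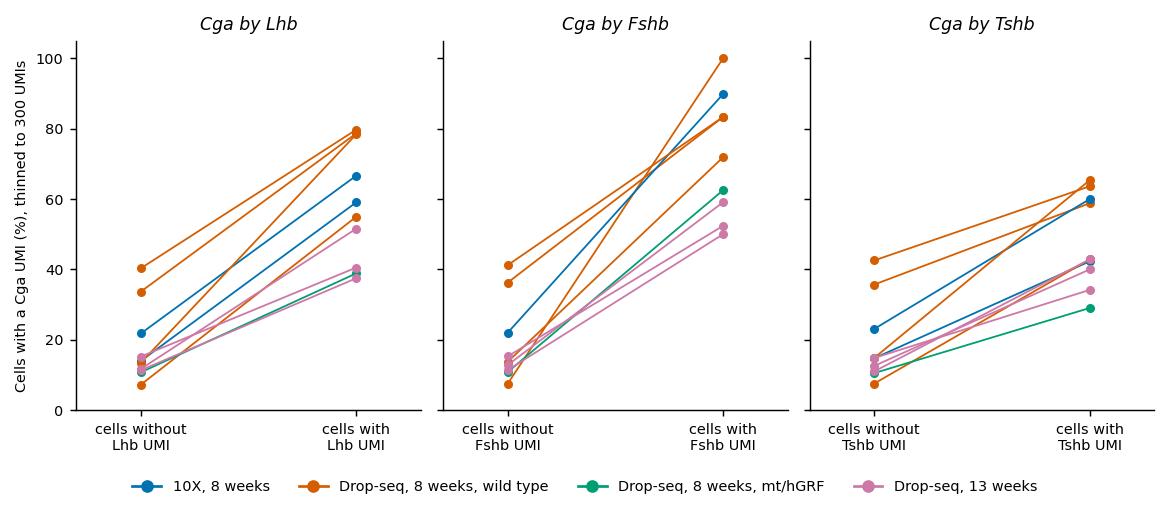
Percent of cells with a Cga UMI (vertical axis) among cells without and with an Lhb, Fshb or Tshb UMI, after thinning to 300 UMIs, with 1 line per library (9 for Fshb). Every line rises towards the cells with the beta subunit, where the means are 58.6%, 72.5% and 47.9%.

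Outside the Gona gate, with cells not thinned, Cga was found in 73.0% ± 11.3 (SD, n = 10) of cells with Lhb and 29.2% ± 15.7 of those without it, in 82.6% ± 10.1 (SD, n = 9) and 30.5% ± 17.4 for Fshb, and in 68.5% ± 13.1 (SD, n = 10) and 30.1% ± 16.7 for Tshb. Within the Gona gate, Cga was found in 96.6% ± 5.04 (SD, n = 10) of cells with Lhb and 62.0% ± 14.7 of the others, and in 95% ± 5.08 (SD, n = 8) of cells with Fshb and 56.4% ± 11.7 of the others. For Tshb the values in the gate were 71.7% ± 30.1 (SD, n = 3) and 71.1% ± 5.25, with differences from -25.8 to 23.7 points. These values are descriptions and share the depth of the cell.

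The cells of the Gona gate were grouped by the subunits they held, and differences in these shares were not tested. Cells with Cga, Lhb and Fshb together made up 41.5% of the gate in 10X male, 22.5% in Drop-seq male 1 and 25.0% in Drop-seq male 2. In the female libraries of 8 weeks they made up 4.65% (10X female), 5% (Drop-seq female 1) and 6.67% (Drop-seq female 2), and in mt/hGRF 0 of 90 cells, which allows a share of up to 3.33%. At 13 weeks they made up 12.3% in virgin, 5.88% in lactating 1 and 3.16% in lactating 2. The 3 male shares were above all female shares. Counting error alone was wide, with 95% exact binomial intervals of 29.4% to 54.4%, 10.8% to 38.5% and 17.8% to 33.4% in the males and of 0.568% to 15.8%, 0.126% to 24.9% and 1.85% to 16.2% in the 8-week wild-type females. When cells were thinned to 300 UMIs, the share was 20%, 10% and 3.13% in the males and at most 5% in the females, so the groups then overlapped. Cells with Cga and no gonadotropin beta subunit were 15.6% to 25.0% of the gate in males and 25.0% to 53.7% in females.

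**Figure D4:**
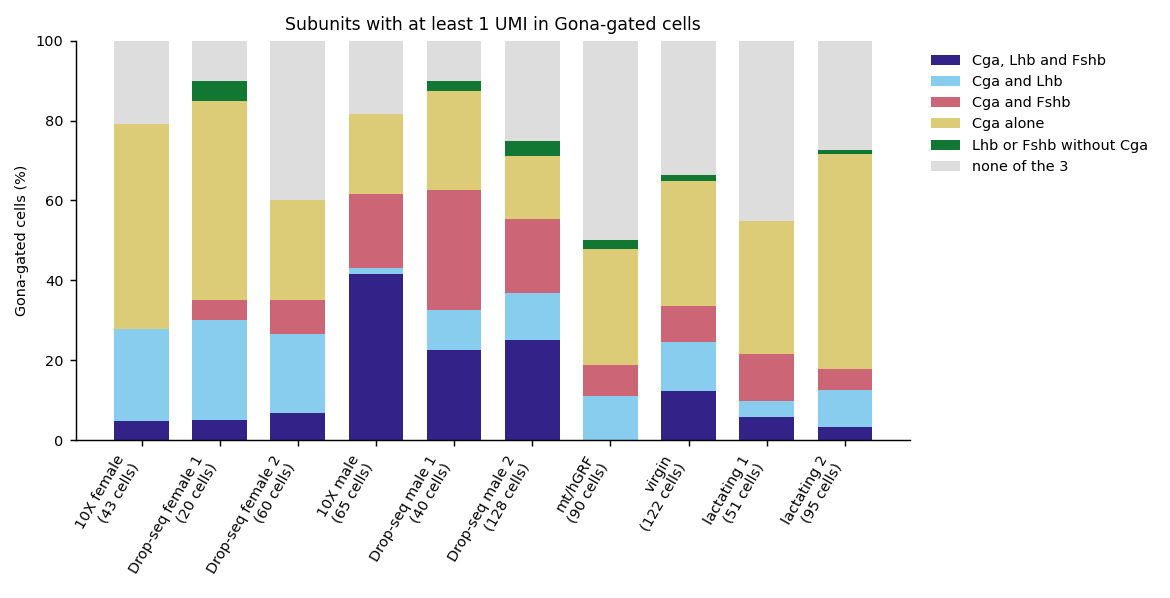
Percent of Gona-gated cells in each library by the combination of Cga, Lhb and Fshb UMIs found in the cell, as deposited. Cells with all 3 subunits are the 41.5%, 22.5% and 25.0% segments of the male libraries, against at most 12.3% in any female library.

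The share of Fshb among the UMIs of both gonadotropin beta subunits also varied. It was 0.917% of Gona-gate UMIs in 10X female (95% exact binomial interval 0.111% to 3.28%), 23.5% in Drop-seq female 1 (6.81% to 49.9%) and 34.0% in Drop-seq female 2 (21.2% to 48.8%). It was 68.0% in 10X male (63.4% to 72.3%), 77.0% in Drop-seq male 1 (68.1% to 84.4%) and 71.4% in Drop-seq male 2 (65.5% to 76.8%). In the other females it was 48.1% in mt/hGRF (28.7% to 68.0%), 19.6% in virgin (15.5% to 24.3%), 68.0% in lactating 1 (46.5% to 85.0%) and 42.3% in lactating 2 (23.4% to 63.1%). Male libraries lay above every 8-week female library, and lactating 1 reached the male values. The number of Cga UMIs per UMI of Lhb or Fshb in the gate was 2.01 in 10X male, 2.53 in Drop-seq male 2, 3.55 in virgin and 3.77 in Drop-seq male 1. It was 4.14 to 13.4 in the 8-week females, 14.2 in lactating 1 and 24.2 in lactating 2. These last values rest on 25 and 26 beta subunit UMIs, the 13.4 of Drop-seq female 1 rests on 17, and 1 cell held 37.8% of the Cga UMIs in the lactating 2 gate and 52.9% in that of Drop-seq female 1.

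Between the sexes at 8 weeks, Fshb was the single member that differed past the threshold. Gona-gated cells held 0.341 Fshb UMIs per 10000 in 10X female, 2.33 in Drop-seq female 1 and 3.13 in Drop-seq female 2, and 33.2 in 10X male, 23.7 in Drop-seq male 1 and 13.6 in Drop-seq male 2. All male libraries were above all female libraries, and the 10X pair was the farthest apart. The log2 fold change of male over female was 3.85 (SE 0.68, 14.4-fold higher, n = 3 libraries a sex), with an adjusted p of 0.0157 by edgeR's quasi-likelihood test. Of the 3 members tested in this gate 1 was called, where 0.591% of 1185 genes were called, and Tshb was below the filter on low counts. The gates held 2, 4 and 17 Fshb UMIs in the females and 295, 87 and 185 in the males.

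The call rested on the Drop-seq female 1 library, whose gate held 20 cells. Without it, Fshb kept a log2 fold change of 3.96 but missed the threshold (edgeR, adjusted p = 0.306), as it did with the paired libraries as a block (log2 fold change 3.73, adjusted p = 0.0688), within a range of adjusted p from 1.32e-06 to 0.306 over all alternatives. The size of the difference moved with the libraries used, to a log2 fold change of 2.92 without 10X female, 2.93 without 10X male, 2.87 with the Drop-seq libraries alone, 4.72 without Drop-seq female 2 and 4.41 without Drop-seq male 2, the range over the alternatives being 2.87 to 4.72. Summed over all kept cells, Fshb was 24.6-fold higher in males (log2 fold change 4.62, SE 0.63, edgeR, adjusted p = 0.0151), as 1 of 4 members called where 0.104% of 12472 genes were. The log2 fold change was 3.68 without 10X female and 3.67 without 10X male or with the Drop-seq libraries alone, and 5.22 without Drop-seq female 2 and 5.17 without Drop-seq male 2. The call was lost without 10X female (edgeR, adjusted p = 0.0542) and with the Drop-seq libraries alone (edgeR, adjusted p = 0.0770, the highest over the alternatives, the lowest being 1.86e-25). The Gona gate held 2.49%, 2.05% and 4.05% of kept cells in the females (10X, Drop-seq 1 and Drop-seq 2) and 3.68%, 4.07% and 6.09% in the males, higher in the male of each pair, beside the 14.4-fold difference in Fshb level within the gate.

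Fshb in the Mult gate was at 0 (up to 0.0282 allowed by 3 counts), 0.134 and 0.291 UMIs per 10000 in 10X female, Drop-seq female 1 and Drop-seq female 2, and at 0.209, 1.57 and 1.14 in the males. There the 10X male level lay below that of Drop-seq female 2, so the groups overlapped. These levels rest on 0, 2 and 3 UMIs in the females and 44, 16 and 16 in the males, and Fshb passed the filter on low counts only through Drop-seq male 1 and Drop-seq male 2, where it was highest, so its call in this gate is a description and supports nothing. The log2 fold change was 3.48 (SE 0.65, edgeR, adjusted p = 0.0215), where 0.262% of 2669 genes were called. The call was lost without 10X female (log2 fold change 2.67, edgeR, adjusted p = 0.296), without 10X male (2.67, adjusted p = 0.632) and with the Drop-seq libraries alone (2.64, adjusted p = 0.723), the log2 fold change was 4.24 without Drop-seq female 2, and Fshb was below the filter, with no value, without Drop-seq male 1, without Drop-seq male 2 and with the richest cells left out (range over the alternatives 1.3e-05 to 0.723). The low-UMI barcodes of the male libraries were also richer in Fshb, as given above, and their part in the Mult values was not tested.

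The other subunits did not pass the threshold between the sexes. Lhb in Gona-gated cells was at 36.9 (10X female), 7.57 (Drop-seq female 1) and 6.08 (Drop-seq female 2) UMIs per 10000 and at 15.7 (10X male), 7.08 (Drop-seq male 1) and 5.42 (Drop-seq male 2), with overlapping ranges and a log2 fold change of -0.42 (SE 0.44, edgeR, adjusted p = 0.997). Of the Lhb UMIs of 10X female, 54.6% came from 1 cell, and without that cell the level was 17.4. Cga was at 189.3, 132.2 and 38.1 in the same order of female libraries and at 98.5, 115.9 and 48.1 in the males (log2 fold change -0.20, SE 0.62, edgeR, adjusted p = 0.997). A single cell held 42.5% of these Cga UMIs in 10X female and 52.9% in Drop-seq female 1. Without the richest cell of each library the female levels were 113.0, 68.9 and 36.3 and the male levels 84.2, 86.8 and 44.3. Over all kept cells the log2 fold change of Lhb was 0.77 (SE 0.51), of Cga 0.53 (SE 0.67) and of Tshb 0.09 (SE 0.59), each with an adjusted p of 1.00 by edgeR. Without single libraries the Lhb value over all kept cells was 0.34 to 1.65. These values do not show that the sexes were alike.

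Mult-gated cells had a median of 1750 UMIs in 10X female and 4171 in 10X male, against 639 to 854 in the 8-week wild-type Drop-seq libraries. In the Mult gate Lhb was at 0.339, 4.03 and 1.07 UMIs per 10000 in 10X female, Drop-seq female 1 and Drop-seq female 2. It was at 0.762, 5.89 and 3.48 in the males of the same order, higher in the male of each pair while the groups overlapped. Its log2 fold change was 0.96 (SE 0.45, edgeR, adjusted p = 1.00), and without Drop-seq female 1 it was 1.86 and passed the threshold (edgeR, adjusted p = 0.019, in a range of 0.019 to 1 over the alternatives). Tshb in the same cells was at 4.53, 1.41 and 0.971 in the females and at 0.224, 2.16 and 0.497 in the males, where Drop-seq male 1 was above its pair and the other males below. A single cell held 353 of the 481 Tshb UMIs in the 10X female gate. Its log2 fold change was -1.92 (SE 0.75, edgeR, adjusted p = 1.00), and it passed the threshold without Drop-seq male 1 (-3.36, edgeR, adjusted p = 0.0111) and when every gene entered the fit (-1.79, edgeR, adjusted p = 0.0335). It was -1.20 without the richest cell of each library, 0.032 without 10X female and 0.038 without 10X male, none past the threshold (edgeR, adjusted p from 0.998 to 1.00).

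The share of all kept cells with an Fshb UMI was 0.232%, 1.02% and 1.28% in the female libraries and 9.85%, 12% and 6.24% in the male libraries of the same order. In MacPh-gated cells of the same libraries it was 0% in the females and 3.64%, 3.53% and 0% in the males. The means over all kept cells were 0.845% and 9.36%, and the exact permutation p of 0.1 is the smallest that 3 against 3 libraries allow (adjusted p = 0.4 over 4 genes). The male library was higher in every pair for each of the 4 genes, by 10.1 to 14.0 points for Cga, 3.88 to 6.70 for Lhb, 4.95 to 11 for Fshb and 0.244 to 2.74 for Tshb. The exact permutation p was 0.6, 0.2, 0.1 and 0.5 in the same order. That test shuffled 3 against 3 libraries and ignored the pairs, so it does not measure the within-pair differences. In the low-UMI barcodes, too, each of the 4 genes was at a higher level in the male library of every pair. The Cga share of MacPh-gated cells was 21.1%, 30.9% and 1.96% in the females and 27.3%, 60% and 7.14% in the males. The part of this background in the shares over all kept cells was not tested.

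**Figure D5:**
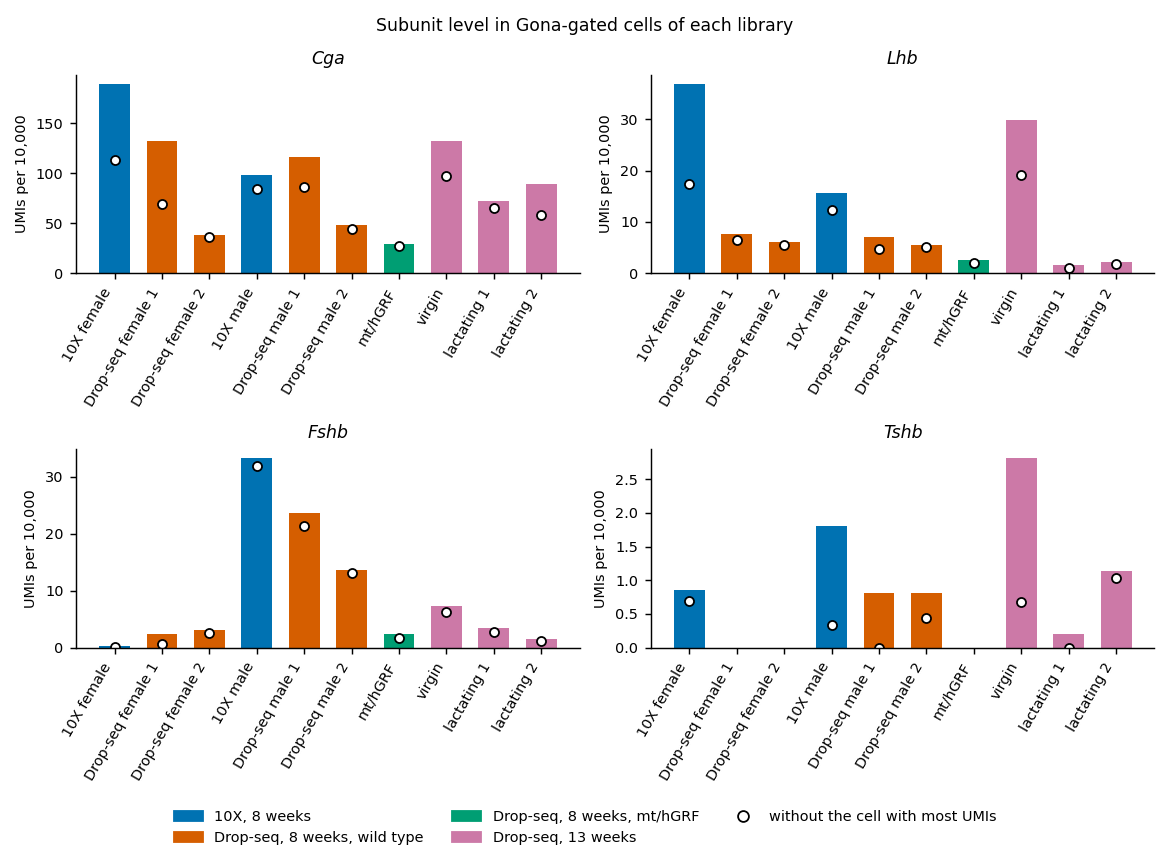
Level of each subunit in the Gona gate of every library, in UMIs per 10000 UMIs, as bars from 0, with open circles for the level without the cell that held the most UMIs of the gene. Fshb bars are highest in the 3 male libraries (33.2, 23.7 and 13.6), and Lhb is at 1.64 and 2.13 in the lactating libraries.

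Lhb was lower in the Gona gate of lactating females than of the virgin female. It was at 29.9 UMIs per 10000 in virgin, 1.64 in lactating 1 and 2.13 in lactating 2, and was found in 26.2% (95% exact binomial interval 18.7% to 35.0%), 9.80% (3.26% to 21.4%) and 12.6% (6.70% to 21.0%) of the gated cells. The fitted log2 fold change, over all 8 Drop-seq libraries so that the single virgin library borrowed the spread of the replicated groups, was -3.81 (SE 0.54, 14.1-fold lower, edgeR, adjusted p = 2.51e-09). Of the 4 members 1 was called, where 0.107% of 1875 genes were. A single cell held 108 Lhb UMIs, 40.6% of those in the virgin gate, and without the richest cell of each library the levels were 19.1, 1.05 and 1.73. In the other Drop-seq libraries the gate had Lhb at 7.57 and 6.08 (8-week wild-type females), 7.08 and 5.42 (8-week males) and 2.49 (mt/hGRF). Virgin was thus the highest of the Drop-seq libraries, and the non-lactating mt/hGRF library was close to lactating 2. The call held in all 7 alternatives, with log2 fold changes from -4.05 to -3.59 and adjusted p from 1.38e-16 to 0.00167 by edgeR or DESeq2. The virgin group is 1 mouse, so its difference from the lactating mice and the variation between mice cannot be told apart by this comparison.

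The other members were not called in the same fit. Cga, the partner of Lhb, was at 132.0 in virgin, 72.4 in lactating 1 and 89.5 in lactating 2, both lactating libraries below virgin, with a log2 fold change of -0.56 (SE 0.65, edgeR, adjusted p = 1). Fshb was at 7.31, 3.48 and 1.56 (log2 fold change -1.45, SE 0.55, edgeR, unadjusted p = 0.00891 and adjusted p = 1), and Tshb was at 2.81, 0.204 and 1.14 (log2 fold change -1.79, SE 1.09, edgeR, adjusted p = 1). Tshb passed the filter on low counts only through virgin, where it was highest, so its fit in this gate is a description and supports nothing. Of the virgin Tshb UMIs in this gate 76% came from 1 cell. Without the richest cell of each library the Tshb levels were 0.680, 0 and 1.03, with lactating 2 above virgin. The Tshb log2 fold change was -3.54 to -1.09 without single lactating libraries. The difference between the Lhb and Cga changes was not tested.

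Over all kept cells, Lhb was at 2.03 in virgin, 0.234 in lactating 1 and 0.256 in lactating 2, below virgin in both lactating libraries, with a log2 fold change of -2.77 (SE 0.76, edgeR, adjusted p = 1). The Gona gate held 3.33% of kept cells in virgin, 1.91% in lactating 1 and 1.81% in lactating 2, and the Stroma gate 11%, 17.4% and 24.5%, and their part in the all-cell level was not tested. Of the 4 members 0 were called by edgeR there, where 0% of 18359 genes were (307 at an unadjusted p under 0.05, and 5 called by DESeq2). Lhb passed the threshold when every gene entered the fit (edgeR, adjusted p = 1.76e-05) and with the 13-week libraries alone (edgeR, adjusted p = 2.15e-18), the range over the alternatives being 2.15e-18 to 1. In the Mult gate Lhb was at 1.42, 0.117 and 0.412 (log2 fold change -1.88, SE 0.73, edgeR, adjusted p = 1), and 0 of 4 members were called by edgeR where 0.0227% of 4402 genes were (86 at an unadjusted p under 0.05, and 1 by DESeq2). The fitted values of the other members there had the opposite sign, at 1.74 for Tshb (SE 0.71, unadjusted p = 0.0229 by edgeR), 0.81 for Cga (SE 0.90) and 2.41 for Fshb (SE 1.41), each with an edgeR adjusted p of 1. Fshb rested on 1, 3 and 6 UMIs in virgin, lactating 1 and lactating 2, Lhb was -3.27 and Tshb 0.60 without lactating 2, and Tshb was 2.27 without lactating 1.

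In the mt/hGRF library no member passed the threshold against the 8-week wild-type female Drop-seq libraries. Cga in Gona-gated cells was at 29.2 UMIs per 10000 against 132.2 and 38.1 in the controls (log2 fold change -1.32, SE 0.71), and Lhb was at 2.49 against 7.57 and 6.08 (log2 fold change -1.22, SE 0.65), each with an edgeR adjusted p of 0.880. Fshb was at 2.31 against 2.33 and 3.13 (log2 fold change -0.11, SE 0.68, edgeR, adjusted p = 0.992), and Tshb was at 0 in all 3 libraries. Tshb entered this fit only through the virgin library, so it could not be called in this comparison. Cga and Lhb were thus below both controls in the single transgenic library, and Fshb was level with Drop-seq female 1, where it rested on 4 UMIs. The Cga log2 fold change was -1.94 to -0.24 without single controls and -1.94 to -0.030 over all alternatives. For Lhb the range over all alternatives was -1.35 to -0.91. Of the gated cells, 47 of 90 in mt/hGRF rested on 1 marker UMI, against 3 of 20 and 22 of 60 in the controls. Their median was 559 UMIs per cell, against 758.5 and 743.5. The part of these differences in the levels was not tested. In Drop-seq female 1 a single cell held 52.9% of the Cga UMIs of the gate, and without it the level was 68.9. Of the 4 members 0 were called by edgeR, where 0.0533% of 1875 genes were (94 at an unadjusted p under 0.05, and 0 by DESeq2).

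Over all kept cells Lhb was at 0.315 in mt/hGRF against 2.43 and 0.551 (log2 fold change -2.10, SE 0.88, edgeR, adjusted p = 0.451), below both controls, which differed from each other. Of the 4 members 0 were called where 0% of 18359 genes were by edgeR (1933 at an unadjusted p under 0.05, and 201 called by DESeq2). In the Mult gate Lhb was at 0.542 against 4.03 and 1.07 (log2 fold change -2.35, SE 0.75, edgeR, adjusted p = 0.429), and 0 of 4 members were called by edgeR where 0.25% of 4402 genes were (291 at an unadjusted p under 0.05, and 1 by DESeq2). With every gene in the fit, Lhb over all kept cells passed the threshold (edgeR, adjusted p = 0.0119, in a range of 0.0119 to 0.785). Cga in the Mult gate was at 6.50 in mt/hGRF against 39.7 and 3.79 (log2 fold change -1.94, SE 0.96, edgeR, adjusted p = 0.759), and without Drop-seq female 2 it was -2.83 and passed (edgeR, adjusted p = 0.0321). Without Drop-seq female 2 the Mult value of Lhb was -3.11 and passed the threshold (edgeR, adjusted p = 0.00962, in a range of 0.00962 to 0.999 over the alternatives). Without the other control, Drop-seq female 1, the Mult values were -0.61 for Lhb and 1.15 for Cga, and Lhb over all kept cells was -0.50, against -2.87 without Drop-seq female 2. The part of the higher mitochondrial share of the mt/hGRF barcodes in these values was not tested.

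In some libraries a large part of the Tshb mRNA lay in few cells. In 10X female 5 cells with 10 or more Tshb UMIs held 505 of the 706 Tshb UMIs (71.5%), and 1 of them held 353. All 5 also had Cga, and together they held 554 Cga, 23 Lhb and 0 Fshb UMIs, in a library with 4 Fshb UMIs in all. Of these cells 2 were in the Mult gate and 3 were ungated. In the other 9 libraries 0 to 11 cells reached 10 Tshb UMIs and held 0% (Drop-seq female 2) to 43.6% (lactating 1) of the Tshb UMIs, while cells with 10 or more Cga UMIs held 24.7% to 75.3% of the Cga UMIs over the 10 libraries. The 6 such Tshb cells of 10X male held 33 Lhb and 8 Fshb UMIs, and 1 of them, like 1 of the 3 in virgin, was in the Gona gate. The highest number was in lactating 2, where 8 of 11 such cells had Cga, 4 were in the Thyr gate and none in the Gona gate. The Tshb-rich cells of 10X female also had a median of 8023 UMIs against 1246 over all kept cells of that library, and whether they were single cells was not tested.

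Across 95 sums of gate and library, each subunit was most like its partners or a gate marker. Of 8482 genes compared by Pearson correlation of log levels, the nearest to Cga were Lhb (r = 0.85), Gnrhr (0.74) and Fshb (0.71). Lhb was nearest to Cga (0.85), Gnrhr (0.75) and Dlgap1 (0.73), and Fshb to Tgfbr3l (0.75), Gnrhr (0.75) and Rmst (0.73). Tshb was nearest to Dio2 (0.60), the deiodinase that activates thyroid hormone, to Rxrg (0.59), a retinoid receptor, and to Ccdc28a (0.43), and its r with Cga was 0.33. Gnrhr, Dlgap1, Tgfbr3l, Rmst, Dio2 and Rxrg chose the gates that form the sums, so their place here partly follows from the gating. The sums of a library share its depth and free mRNA, and the correlations are descriptions.

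The other genes of the axis did not pass the threshold in any of the 9 fits. Of 34 listed genes, which hold the releasing-factor, steroid, thyroid hormone and activin receptors, the inhibin subunits and the transcription factors of these lineages, 26 were tested for sex over all kept cells, 10 in the Gona gate and 5 in the Mult gate. For lactation and for the transgene 28, 12 and 12 were tested. In the Gona-gate fits Gnrhr, Nr5a1, Isl1 and Tgfbr3l are markers of the gate itself. Their values there, and the list medians that include them, partly follow from the gating. Counts of 0 were called in each fit by edgeR and by DESeq2, and 8, 3 and 0 (sex), 2, 0 and 1 (lactation) and 1, 1 and 1 (transgene) had an unadjusted p under 0.05, in the order all kept cells, Gona gate and Mult gate. Over all genes tested these counts were 397 of 12472, 79 of 1185 and 79 of 2669 for sex, 307 of 18359, 40 of 1875 and 86 of 4402 for lactation, and 1933 of 18359, 94 of 1875 and 291 of 4402 for the transgene. The median log2 fold change of the list was 0.02, -0.15 and 0.12 for sex, beside 0.03, 0.04 and 0.05 over all genes tested, and -0.17, -0.23 and 0.14 for lactation, beside 0.04, -0.03 and 0.03. For the transgene it was -0.42, -0.61 and -0.65, beside -0.08, -0.03 and -0.05.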

How the data were processed

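Single-cell RNA libraries of CD1 mouse pituitaries were analysed from the counts of UMIs per gene and barcode that the authors deposited, not normalized. Per the authors, Drop-seq reads were aligned to mm10 (STAR 2.5.2a in the submitters' processing notes) and uniquely mapped, strand-matched exonic reads were counted on Gencode vM13, with UMIs an edit distance of 1 apart merged. Per the labels, 10X counts came from Cell Ranger, its version not given in the sources used here.

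Cells were kept by the study's limits (Drop-seq, at least 300 UMIs and 100 to 4000 genes; 10X, more than 200 and fewer than 3000 genes; mitochondrial share below 0.1). Low-UMI barcodes were those with at most 100 UMIs in 10X and below the UMI limit in Drop-seq. No doublet caller was run. Gates used marker lists without the 4 subunits, some of them taken from the study's markers on these samples, and the gating rule was set after the data were seen. Members and lists were chosen with earlier results of these data known.

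UMIs were summed per library and gate (at least 20 cells) and tested with edgeR 4.0.16 in R 4.3.3 (quasi-likelihood, TMM, filterByExpr, two-sided, Benjamini-Hochberg over all genes tested, threshold 0.05), with DESeq2 1.42.0 as an alternative. The sex fit used the 6 wild-type 8-week libraries with platform as a term, and the lactation and transgene fits used the 8 Drop-seq libraries. No label says that replicates are separate cultures or litters, so p-values measure the spread between these libraries. Libraries were paired by platform and, within Drop-seq, by a code in the sample titles, which do not say what it stands for. Between the libraries of a pair, deviations from the sex mean correlated at 0.88, 0.56 and 0.70 over all kept cells. In the Gona gate the correlations were 0.80, 0.36 and 0.67. These include the difference between platforms. Within Drop-seq the difference between the title codes correlated between the sexes at 0.33 over all kept cells and 0.20 in the Gona gate. Exact binomial intervals used scipy 1.17.1, and the exact permutation tests of signs enumerated every pattern of signs over the libraries. The scripts were tested on simulated data. The genes named beside the 4 subunits were the 3 with the highest Pearson correlation of log2 levels to each of them, and listed axis genes past the threshold.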

Additional observations from a re-analysis of the deposited data

Results flagged for a closer look

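The results below were marked because groups moved in opposite directions, and in each case the difference itself was not tested. The values are log2 ratios of male over female library, from UMIs per 10000 plus 0.5, within the 10X pair and within each Drop-seq pair.

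In the Gona gate Lhb was lower in the male library of all 3 pairs, at -1.21 in 10X and -0.091 and -0.15 in Drop-seq, with a mean of -0.48 that rests mainly on the 10X pair, while in the Mult gate it was higher in the male library of all 3 pairs (0.59 in 10X, 0.50 and 1.34 in Drop-seq). In the Gona gate of 10X female 1 cell held 54.6% of the Lhb UMIs, and without it the level fell from 36.9 to 17.4 UMIs per 10000, beside 15.7 in 10X male. The fits for sex called Lhb in neither gate.

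In the Mult gate Cga was lower in the male 10X library, at -0.62, and higher in both male Drop-seq libraries, at 0.12 and 2.24, with a mean of 1.18 that rests on the second pair. The Mult-gated cells of 10X had more UMIs each, as given above. Over all kept cells Tshb was lower in the male 10X library, at -0.83, and higher in both male Drop-seq libraries, at 0.35 and 0.52, with a mean of 0.43. The 10X female library held 353 of its 706 Tshb UMIs in 1 cell, and without that cell its level fell from 1.80 to 0.902 UMIs per 10000. In ungated cells the Tshb ratio was -0.13 in the 10X pair and 0.45 on average in the Drop-seq pairs.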

How the results depend on the processing

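Across alternatives, 170 of 176 member levels between gates, 26 of 30 co-detection values, all 8 shares between the sexes and 233 of 278 subunit fold changes kept their direction and their side of the threshold. Gates rest on few marker UMIs, doublets were not called, and Lhb, Fshb and Tshb had few UMIs per gate. Leaving out the single virgin or mt/hGRF library leaves no comparison, and subunits below the filter gave no value. Causes of the changes below were not tested.

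The number of genes called for sex over all kept cells (13) was 23 with DESeq2, 61 with every gene, 31 with the replicate block, 1 with Drop-seq alone and 6 to 20 without single libraries. In the Gona gate (7) it was 12 with every gene, 4 with the replicate block and 3 to 16 without single libraries, and in the Mult gate (7) 20 with every gene, 2 with Drop-seq alone and 1 to 9 without single libraries. For lactation it was, over all kept cells (0), 5 with DESeq2, 20 with every gene and 209 with the 13-week libraries alone. Gona-gate calls (2) were 7 with the 13-week libraries and 4 with at least 2 marker UMIs, and in the Mult gate (1) 5 with every gene, 8 with the 13-week libraries and 1 to 6 without single libraries. For the transgene it was, over all kept cells (0), 201 with DESeq2, 861 with every gene, 623 without Drop-seq female 1 and 2 without Drop-seq female 2. Gona-gate calls (1) were 0 with DESeq2, with every gene and with at least 2 marker UMIs, and 0 to 1 without single libraries. In the Mult gate (11) it was 1 with DESeq2, 38 with every gene, 0 with at least 2 marker UMIs and 14 to 18 without single libraries.

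The replicate block pairs the 10X libraries and the Drop-seq libraries that share a title code. With it, the Fshb fold change in the Gona gate (3.73 on the log2 scale) lost its call, and no other subunit call for sex changed.

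Fold changes below the threshold changed sign (log2). For sex, Cga over all kept cells was -0.017 to 1.63 and Tshb -0.68 to 0.73 without single libraries. In the Gona gate Cga was -0.82 to 0.34 and Lhb -0.68 to 0.11 without single libraries, Cga 0.0031 with every gene, 0.12 with Drop-seq alone, 0.31 with at least 2 marker UMIs and 0.20 without the richest cells, and Lhb 0.026 with Drop-seq alone. In the Mult gate Cga was -0.53 to 1.55 and Tshb -3.36 to 0.038 without single libraries, and Tshb 0.018 with Drop-seq alone. For lactation over all kept cells, Cga was -0.40 to 0.24 without single libraries and 0.030 without the richest cells. For the transgene over all kept cells, Cga was -2.15 to 0.64 and Tshb -0.76 to 1.56 without single libraries, and Tshb -0.038 with DESeq2 and -0.033 with the 8-week females alone. In the Gona gate Fshb was -0.29 to 0.23 without single libraries, 0.071 with every gene and 0.073 without the richest cells, and in the Mult gate Cga was -2.83 to 1.15 and Tshb -0.040 to 1.08 without single libraries.

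Tshb in the Gona gate over another gate changed sign against Stroma (-0.10 with at least 2 marker UMIs, -0.035 with a pseudocount of 0.1, -0.059 with Drop-seq alone), Som (-0.052 with that pseudocount, -0.084 with Drop-seq alone) and Mel (-0.032 with that pseudocount). Co-detection passed the threshold for Tshb with Lhb without thinning (19.7 points), at 500 UMIs (6.71) and at 2 or more UMIs of each gene (21.6), and for Tshb with Fshb without thinning (8.62).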

Other observations

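A few levels outside the Gona and Thyr gates came from very few cells. In the Sox2+ gate of 10X male all 38 Tshb UMIs came from 1 of 20 cells, which gave the gate 11.1 Tshb UMIs per 10000. In the Lac gate of Drop-seq male 1, with 26 cells, 12 Fshb UMIs came from 3 cells (6.78 UMIs per 10000) and 10 Lhb UMIs from 6 cells (5.65 UMIs per 10000).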
